A study of Homo sapiens with 6 samples.

Results

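NRF2 antioxidant targets were followed here in SW480, an established line of human colorectal adenocarcinoma cells. The genes were chosen by name, as 9 well-known targets of the transcription factor NRF2, and 8 of these had a probe set of their own on the arrays, among 23752 genes measured. The 8 were SLC7A11, GCLC, GCLM, TXNRD1, SRXN1, NQO1, HMOX1 and AKR1B10, and AKR1C1 was not analysed here. The cells had been transfected transiently with the reagent Turbofect. They received the pTarget plasmid carrying TUSC3 (3 arrays) or the pTarget empty vector (EV, 3 arrays), so both groups had plasmid and reagent. TUSC3 encodes a subunit of the oligosaccharyltransferase of the endoplasmic reticulum. The sources used here do not give the share of cells that took up plasmid or the time from transfection to harvest. They also do not say that the replicates came from separate cultures, so the p-values cover only the variation among these 6 arrays, some or all of which may be technical.

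NRF2, encoded by NFE2L2, is held in the cytoplasm and sent for degradation by KEAP1 until oxidants or electrophiles modify KEAP1. It then enters the nucleus, pairs with small MAF proteins and binds antioxidant response elements, while BACH1 competes for such sites and represses genes such as HMOX1. Its targets import cystine and make glutathione, recharge thioredoxin and peroxiredoxins, reduce quinones and carbonyls, and break down haem. In colorectal and other carcinoma cells these enzymes are known for their part in tolerance of oxidants and drugs.

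The core of the antioxidant response element, written here as TGACNNNGC, was searched on both strands of the RefSeq promoter windows of GRCh38.p14, each running from 250 bases before a gene's start to 50 after it. Windows were found for 6 of the 9 listed targets, 5 of them measured on the arrays: GCLC, GCLM, TXNRD1, SRXN1 and NQO1. The core was found in the window of GCLM and in both windows of TXNRD1, and not in those of GCLC, SRXN1, NQO1 or AKR1C1. It occurs in 13.35% of all 35116 windows and in 30 of the 159 windows of the other pathway genes described below, so a match is a description of these letters and not a site of binding. Response elements farther from the start lie outside these windows.

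The upstream part of the GCLM window is shown whole because it holds the only match found for GCLM, at chr1:93909431-93909680 on the minus strand. The match lies on the other strand, so the capitals show the core as its reverse complement.
GCLM promoter: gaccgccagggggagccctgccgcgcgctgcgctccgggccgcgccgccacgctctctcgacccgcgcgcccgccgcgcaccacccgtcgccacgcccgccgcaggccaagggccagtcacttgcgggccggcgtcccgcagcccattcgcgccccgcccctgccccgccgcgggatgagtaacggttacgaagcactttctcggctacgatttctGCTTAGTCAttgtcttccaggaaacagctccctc

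Matches are shown with 10 bases on each side, read along the strand of the motif and with the core in capitals. SLC3A2, ME1 and GPX2 are included as examples of the genes whose values are set beside those of the targets below. The windows of KEAP1, GGT1 and NCOA4, also named below, hold matches that are not printed.
GCLM site, chr1:93909446-93909474, plus strand: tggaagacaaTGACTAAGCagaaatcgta
TXNRD1 site in the first window, chr12:104215670-104215698, plus strand: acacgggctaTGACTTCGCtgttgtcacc
TXNRD1 site in the second window, chr12:104286920-104286948, minus strand: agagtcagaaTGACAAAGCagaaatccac
SLC3A2 site, chr11:62881652-62881680, plus strand: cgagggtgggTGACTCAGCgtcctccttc
ME1 site, chr6:83431170-83431198, minus strand: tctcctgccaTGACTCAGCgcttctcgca
GPX2 site, chr14:64942849-64942877, plus strand: atccccaggaTGACTTAGCaaaaacaggt
The form TGACTCAGC in SLC3A2 and ME1 is found in 0.561% of all windows and in 4 of the 159 pathway gene windows. Besides SLC3A2 and ME1, these are windows of GSTP1 and PIR. None of the 7 windows of the listed targets holds this form, but for so rare a form 7 windows are too few to show a lack. The first TXNRD1 window holds another match, 8 bases before the start, and the ME1 window another, 11 bases after it.

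All values are log2 levels from RMA, a method that subtracts background, gives all arrays one distribution and merges a gene's probes into one value, and all differences are TUSC3 minus EV. The TUSC3 signal was 4.51 ± 0.16 (SD, n = 3) in EV and 13.11 ± 0.022 (SD, n = 3) with the TUSC3 plasmid, a difference of 8.60 (limma, adjusted p = 7.71e-08), in the direction the labels give. The epithelial markers EPCAM, KRT19, KRT18 and CDH1 had mean EV levels of 12.44, 12.49, 11.09 and 9.17. CDX2, VIL1 and KRT8 had intermediate levels of 7.93, 7.05 and 6.69, the last 2 below the highest marker of another cell type, and CEACAM5, KRT20 and LGR5 had low ones of 3.38, 4.23 and 3.34. The 27 measured markers of other cell types lay between 2.55 (PTPRC) and 7.24 (LYZ) in EV with a median of 4.09, and 0 of them passed the threshold. No detection call was used, so low signals were not told apart from background.

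None of the 8 targets passed the threshold of an adjusted p under 0.05 over all genes (limma), against 0.00421% of the 23752 genes, which is TUSC3 by itself. The nearest was SLC7A11, the cystine transporter gene, with a mean level 1.18-fold that of EV. The other differences ran from -0.25 for AKR1B10 to 0.13 for SRXN1. The 95% intervals of all 8 lay inside a change of 1.5-fold in either direction, as did those of 91.1% of all genes. For AKR1B10 this did not hold when TUSC3 replicate 1, EV replicate 2 or EV replicate 3 was left out, where its interval reached down to -0.59.

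SLC7A11 (chr4:138164097-138242349) encodes the light chain of the cystine and glutamate exchanger, which brings in the cystine needed for glutathione. Its levels were 7.86, 7.93 and 7.92 on EV replicates 1 to 3 and 8.10, 8.22 and 8.10 on TUSC3 replicates 1 to 3. Every TUSC3 array lay above every EV array. In RNA from whole cultures, a change in every cell and a change in the transfected cells alone cannot be told apart. SLC7A11 differed by 0.24 (SE 0.069), and the 95% interval ran from 0.075 to 0.40 (limma, unadjusted p = 0.0105, adjusted p = 0.731). An exact two-sided permutation test gave p = 0.1, which is as low as a design of 3 against 3 can reach. SLC7A11 is also a target of ATF4 in the amino acid response. SLC3A2, which encodes the heavy chain that carries this transporter to the cell surface, read 11.99, 11.97 and 11.93 in EV and 12.003, 12.004 and 11.97 with TUSC3. These groups overlapped, and the difference was 0.03 with an interval of -0.11 to 0.17.

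GCLC (chr6:53497341-53545101) and GCLM (chr1:93885199-93909430) encode the catalytic and the modifier subunit of glutamate-cysteine ligase, the rate-limiting enzyme of glutathione synthesis. GCLC read 8.53, 8.41 and 8.55 in EV and 8.46, 8.46 and 8.43 with TUSC3. GCLM read 9.57, 9.55 and 9.41 in EV and 9.56, 9.52 and 9.62 with TUSC3. In both genes the TUSC3 arrays fell within or close to the EV range. The GCLC difference was -0.04 with an interval of -0.21 to 0.12 (limma, adjusted p = 0.928), and it was -0.026, -0.089 and -0.019 without EV replicates 1, 2 and 3 in turn. The GCLM difference was 0.06 with an interval of -0.11 to 0.23 (limma, adjusted p = 0.904). The low GCLM value of EV replicate 3 bears on this, since the GCLM difference was 0.01 without that array, and it was 0.035 without TUSC3 replicate 3. GSS, which encodes glutathione synthetase, the enzyme of the next step, differed by -0.012 from an EV level of 10.44, and GSR, the glutathione reductase gene, by 0.009 from 9.76.

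TXNRD1 (chr12:104215779-104350307) encodes the cytosolic thioredoxin reductase, a selenoprotein that recharges thioredoxin with electrons from NADPH. It read 9.73, 9.63 and 9.62 in EV and 9.76, 9.75 and 9.77 with TUSC3. Each TUSC3 array was above each EV array, by a narrow margin from EV replicate 1. TXNRD1 differed by 0.10 (SE 0.065), with an interval from -0.056 to 0.25 (limma, adjusted p = 0.820, exact permutation p = 0.1). Its substrate gene TXN read 12.32, 12.31 and 12.37 in EV and 12.44, 12.43 and 12.39 with TUSC3, which likewise did not overlap. The TXN difference was 0.088 with an interval of -0.059 to 0.23 (limma, adjusted p = 0.828).

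SRXN1 (chr20:646615-653200) encodes sulfiredoxin, which rescues peroxiredoxins that peroxide has over-oxidised. It read 8.63, 8.53 and 8.71 in EV and 8.89, 8.69 and 8.69 with TUSC3. TUSC3 replicate 1 was the high array, and the other TUSC3 arrays lay inside the EV range. The difference was 0.13 with an interval of -0.078 to 0.33 (limma, adjusted p = 0.823), and it was 0.062 without TUSC3 replicate 1 and 0.080 without EV replicate 2. PRDX1, which encodes one of the peroxiredoxins that sulfiredoxin repairs, differed by -0.0036 from an EV level of 12.07.

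NQO1 (chr16:69709401-69726560) encodes a quinone reductase and is the usual reporter gene of NRF2 activity. It read 10.65, 10.63 and 10.63 in EV and 10.65, 10.74 and 10.83 with TUSC3. The EV arrays were tightly grouped, with an SD of 0.011, while TUSC3 replicate 1 lay among them and TUSC3 replicate 3 was highest. The difference was 0.10 with an interval of -0.067 to 0.27 (limma, adjusted p = 0.827), and it was 0.056 without TUSC3 replicate 3. Its relative NQO2 differed by 0.017 from an EV level of 8.70.

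HMOX1 (chr22:35381096-35394207) encodes the inducible haem oxygenase, which opens the haem ring to biliverdin, iron and carbon monoxide. It read 6.80, 7.22 and 6.97 in EV and 6.96, 7.15 and 7.05 with TUSC3. All TUSC3 values lay inside the EV range, whose SD of 0.21 was the widest of the 8 targets in either group. The difference was 0.055 with an interval of -0.22 to 0.33 (limma, adjusted p = 0.952), and it changed sign, to -0.043, without EV replicate 1. It was 0.17 without EV replicate 2, 0.10 without TUSC3 replicate 1 and 0.0078 without TUSC3 replicate 2. HMOX2, the constitutive form, differed by -0.019. BLVRB, a biliverdin reductase gene, differed by 0.11 with an interval of -0.046 to 0.27.

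AKR1B10 (chr7:134527567-134541412) encodes an aldo-keto reductase that acts on retinal and other carbonyls. It read 4.09, 3.81 and 3.82 in EV and 3.79, 3.57 and 3.59 with TUSC3. Every TUSC3 array lay below every EV array, with EV replicate 1 apart from the other two. AKR1B10 differed by -0.25 (SE 0.10), and its interval ran from -0.50 to -0.0092 (limma, unadjusted p = 0.0439, adjusted p = 0.741). Without EV replicate 1 it differed by -0.17. These signals lie in the range of the markers of other cell types, so the part of background in the difference was not tested. The close paralogue AKR1B15, with a low EV signal of 3.52, differed by 0.17, in the other direction. The sources used here do not say whether their probe sets share probes, so the pair cannot be fully told apart. The paralogues of the unmeasured AKR1C1 were also at low signals, with AKR1C2 at 2.94 and AKR1C3 at 2.95 in EV and differences of 0.010 and 0.22.

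**Figure D1:**
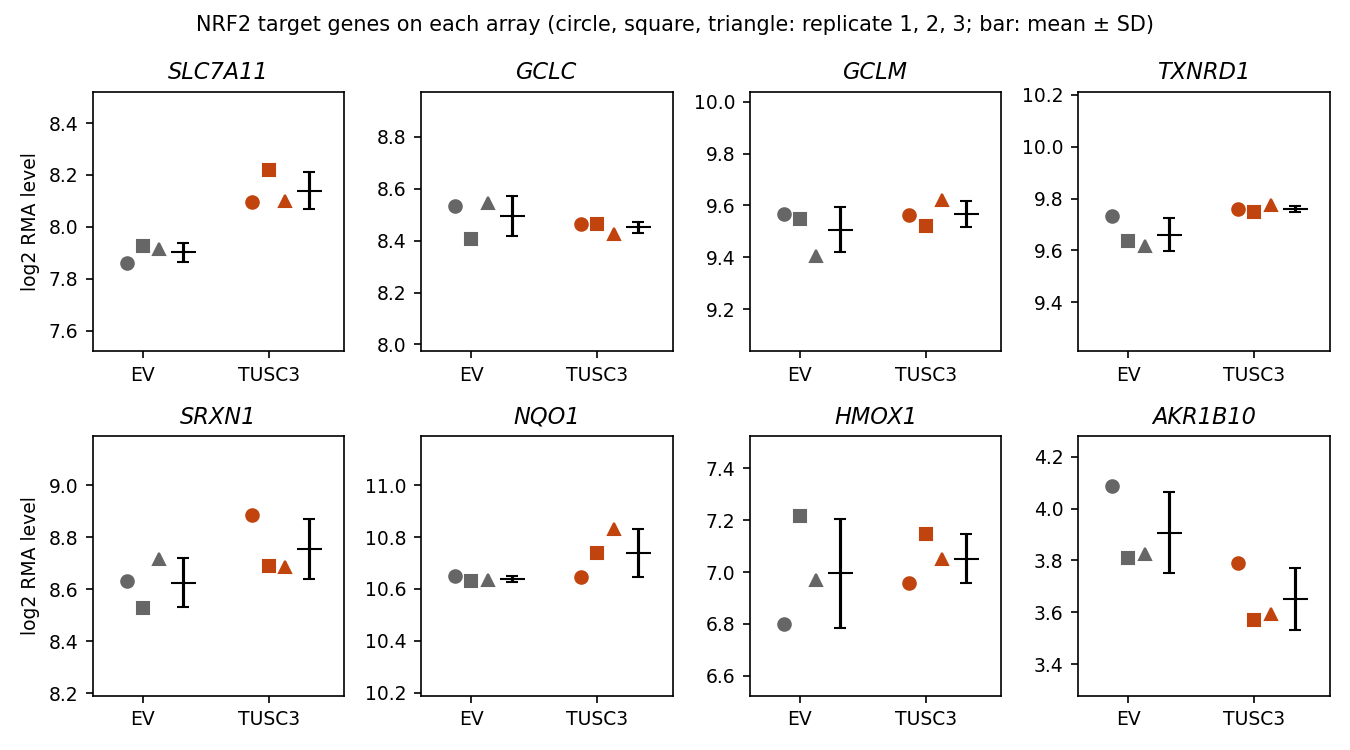
Log2 RMA level (y axis, a span of 1 unit in every panel but at different heights) of each measured NRF2 target on the EV and TUSC3 arrays, with replicates as symbols and the mean ± SD (n = 3) as a bar. SLC7A11 and TXNRD1 lie higher on every TUSC3 array and AKR1B10 lower, while the groups of the other 5 genes overlap.

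The position of each target in the signal distribution of the EV arrays differed. NQO1 stood at percentile 96.4 of all genes, TXNRD1 at 90.8, GCLM at 89.6, SRXN1 at 81.2, GCLC at 79.8, SLC7A11 at 73.5, HMOX1 at 64.3 and AKR1B10 at 30.3. The percentiles place signals and not transcript amounts, because probe sets differ in how strongly they bind. The spread between arrays of one group was small for most targets. The pooled SD was 0.045 for TXNRD1, 0.056 for SLC7A11, 0.057 for GCLC and 0.066 for NQO1. It was 0.071 for GCLM, 0.10 for SRXN1, 0.14 for AKR1B10 and 0.16 for HMOX1, against a median of 0.12 over all genes.

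**Figure D2:**
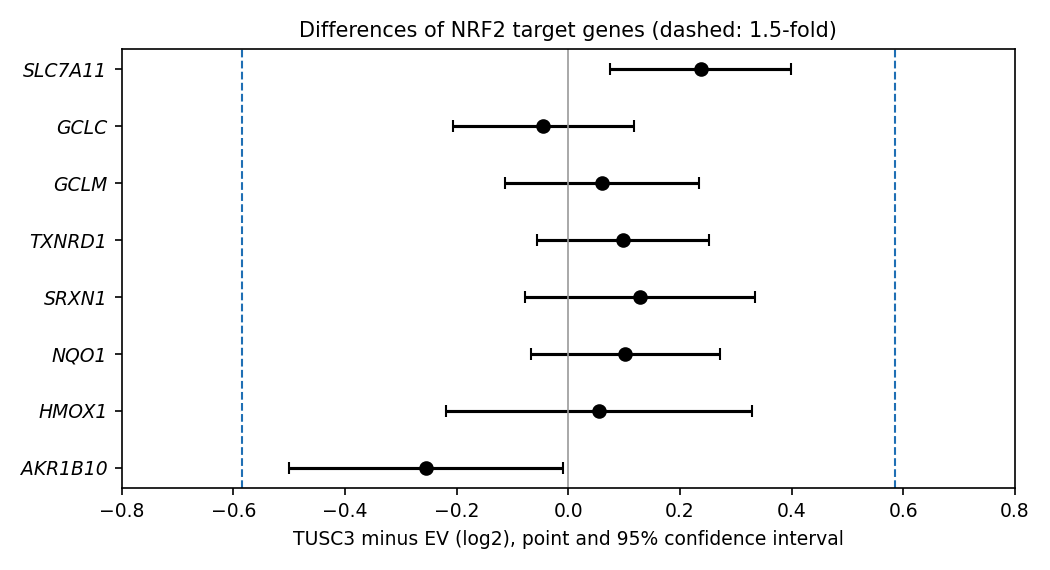
Difference of each measured NRF2 target, TUSC3 minus EV on the log2 scale (x axis), with its 95% interval from limma and dashed lines at a change of 1.5-fold. All 8 intervals lie between the dashed lines, and those of SLC7A11 and AKR1B10 do not reach 0.

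As a list, 6 of the 8 targets were higher with TUSC3 and 2 lower (GCLC and AKR1B10), where 50.4% of all genes were higher. The median difference was 0.08, against 0.0013 over all genes. The unadjusted p was under 0.05 for 2 targets, against 6.71% of all genes. One of these was higher (SLC7A11, background 3.41%) and the other lower (AKR1B10, background 3.3%). The groups did not overlap for 3, against 12.2%. Of these 3, 2 lay above EV (background 6.17%) and 1 below (background 6.08%). The targets were chosen with earlier results of these data known, so these counts describe the list and carry no test.

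By array, the mean deviation of the 8 targets from their EV means was 0.054, 0.046 and 0.043 on TUSC3 replicates 1 to 3, and 0.016, -0.0035 and -0.013 on EV replicates 1 to 3. The TUSC3 arrays were similar in this mean, and AKR1B10 had the lowest deviation on each of them. On TUSC3 replicate 1 the largest positive deviation was that of SRXN1 (0.26), on replicate 2 that of SLC7A11 (0.32) and on replicate 3 again SLC7A11 (0.20), followed by NQO1 (0.19). On replicate 1 SLC7A11 came next after SRXN1, also at 0.20. On EV replicate 1 HMOX1 was low (-0.20) and AKR1B10 high (0.18), and on EV replicate 2 HMOX1 was high (0.22).

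**Figure D3:**
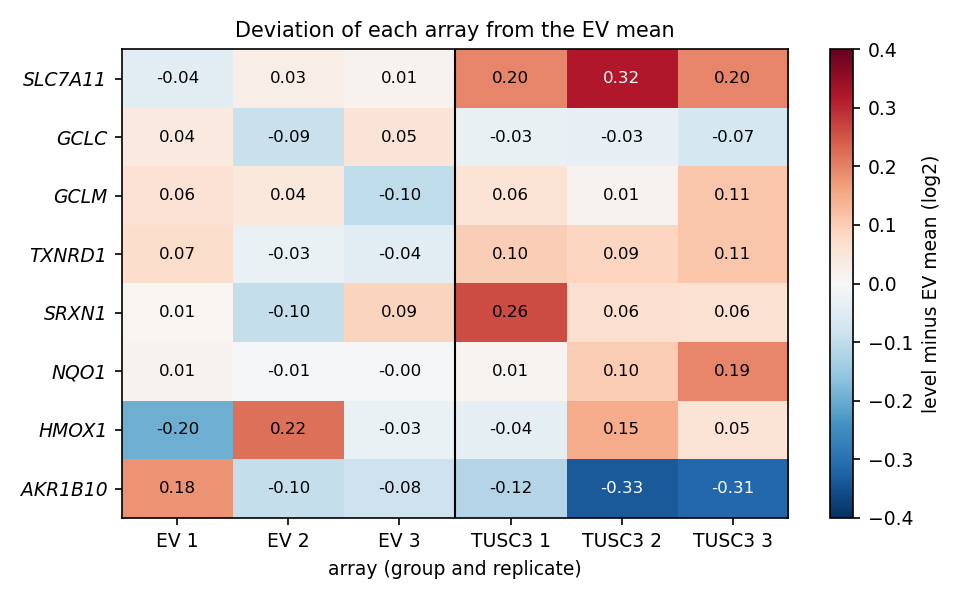
Deviation of each target from its EV mean (colour and printed value, log2) on each of the 6 arrays, with EV left of the line and TUSC3 right of it. On all 3 TUSC3 arrays SLC7A11, GCLM, TXNRD1, SRXN1 and NQO1 are above their EV means and GCLC and AKR1B10 below. For GCLM, SRXN1, NQO1 and GCLC the groups still overlap. HMOX1 varies more among the EV arrays (SD 0.21) than between the groups (difference 0.055).

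The regulators of the pathway were examined next, 15 of them measured, and 0 passed the threshold in either direction. Of the 15, 9 were higher and 6 lower, and their median difference was 0.02. NFE2L2, the gene of NRF2 itself, read 9.91, 9.97 and 9.83 in EV and 9.89, 9.78 and 9.79 with TUSC3, which is a difference of -0.088 (interval -0.26 to 0.081). KEAP1, the gene of its inhibitor, differed by 0.02 from an EV level of 9.04, and BACH1, the competing repressor, by -0.04 from 6.70. The related factor gene NFE2L1 differed by 0.071, DPP3, whose product binds KEAP1, by 0.094, and BTRC, which encodes a receptor of a KEAP1-independent ubiquitin ligase for NRF2, by -0.07. NRF2 is controlled mainly as a protein, and its amount and place in the cell were not measured.

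The other enzymes around the targets were taken from 7 further lists. Across these and the regulators, 121 of 132 listed genes were measured, 63 were higher and 58 lower, with a median difference of 0.0037. None passed the threshold (limma), and 6 had an unadjusted p under 0.05, where 6.71% of all genes did. Every TUSC3 array lay above every EV array for 6 of the 121 and below for 9, against 6.17% and 6.08% of all genes. Leaving out 1 array moved the difference by over 1.5 times for 30 of the 46 pathway genes named here, as it did for 6 of the 8 targets, all but SLC7A11 and TXNRD1. For 117 of the 121 the 95% interval lay inside a change of 1.5-fold, as it did for 91.1% of all genes. The widest interval, for a gene of the glutathione list, ran from -1.36 to 0.94.

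Among 30 genes of glutathione recycling and use, 12 were higher, 18 lower and 0 past the threshold in either direction, with a median of -0.03. GLRX, the glutaredoxin gene, read 8.40, 8.58 and 8.58 in EV and 8.68, 8.76 and 8.69 with TUSC3, a difference of 0.19. GPX1, a selenium-dependent peroxidase gene, differed by 0.13, while GPX2, the peroxidase of intestinal epithelium and an NRF2 target, was at 3.69 in EV and differed by -0.039. GGT7, a member of the gamma-glutamyltransferase family, differed by -0.21 and MGST2, a microsomal glutathione transferase gene, by -0.16. GGT1, whose product splits extracellular glutathione, had the widest difference of this list, -0.41, and was chosen after its value was seen. Its arrays overlapped, with an interval of -0.93 to 0.11, and it differed by -0.19 without EV replicate 2.

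In the thioredoxin and peroxiredoxin system, 13 of 20 genes were higher, 7 lower and 0 past the threshold, with a median of 0.014. PRDX6, a peroxiredoxin gene, differed by 0.10 and TXNRD3, another thioredoxin reductase gene, by -0.085. TXNIP, which encodes the inhibitor of thioredoxin, read 11.38, 11.13 and 11.28 in EV and 11.30, 11.29 and 11.13 with TUSC3, a difference of -0.022. SESN3, a sestrin gene and a target of FOXO factors, read 8.13, 8.17 and 8.13 in EV and 7.96, 7.89 and 7.83 with TUSC3. Its groups did not overlap, and the difference was -0.25 with an interval of -0.41 to -0.092 (limma, unadjusted p = 0.00710, adjusted p = 0.731).

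Of 16 other reductase genes, 10 were higher, 6 lower and 0 past the threshold, with a median of 0.013. CRYZ, a quinone oxidoreductase gene, read 8.998, 9.06 and 8.94 in EV and 8.73, 8.82 and 8.87 with TUSC3, a difference of -0.19, and PTGR2, a prostaglandin reductase gene, differed by -0.10, and by -0.019 without EV replicate 2. AKR7A3, an aldo-keto reductase gene chosen after its value was seen, differed by 0.41, which rested on the level of 5.64 on TUSC3 replicate 1 against 4.74 and 4.26 on the other TUSC3 arrays, and it differed by 0.028 without that array.

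In haem breakdown and iron storage, 4 of 11 genes were higher, 7 lower and 0 past the threshold, with a median of -0.013. SLC40A1, which encodes the iron exporter ferroportin and is a target of NRF2 and BACH1, read 3.89, 3.93 and 4.14 in EV and 4.32, 4.31 and 4.71 with TUSC3. Its groups did not overlap, and the difference was 0.46 with an interval of 0.15 to 0.77 (limma, unadjusted p = 0.00984, adjusted p = 0.731). The signal was as low as that of the markers of other cell types. BLVRA, the other biliverdin reductase gene, differed by -0.066, and NCOA4, the receptor for ferritin breakdown, by -0.069.

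Of 10 NADPH supply genes, 6 were higher, 4 lower and 0 past the threshold, with a median of 0.02. ME1, the gene of cytosolic malic enzyme and an NRF2 target, read 10.11, 10.12 and 10.10 in EV and 10.20, 10.12 and 10.20 with TUSC3, a difference of 0.06. TKT, the transketolase gene, differed by -0.011, NADK, the NAD kinase gene, by 0.21 and NNT, the mitochondrial transhydrogenase gene, by -0.043. Of 12 other NRF2 targets, 5 were higher, 7 lower and 0 past the threshold, with a median of -0.034. TRIM16L differed by 0.23, CES1, a carboxylesterase gene at a low EV signal of 3.79, by 0.12, and ALDH3A2, a fatty aldehyde dehydrogenase gene, by -0.20. ABCC1, a drug and glutathione conjugate exporter gene, differed by -0.10, and OSGIN1, an oxidative stress-induced growth inhibitor gene, by -0.071 with a wide interval of -0.51 to 0.37. Of 7 genes of superoxide and peroxide removal, 4 were higher, 3 lower and 0 past the threshold. CAT, the catalase gene, differed by -0.08 and SOD3, an extracellular superoxide dismutase gene at a low EV signal of 4.54, by 0.18. The cytosolic and mitochondrial dismutase genes SOD1 and SOD2 differed by 0.043 and -0.0031.

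**Figure D4:**
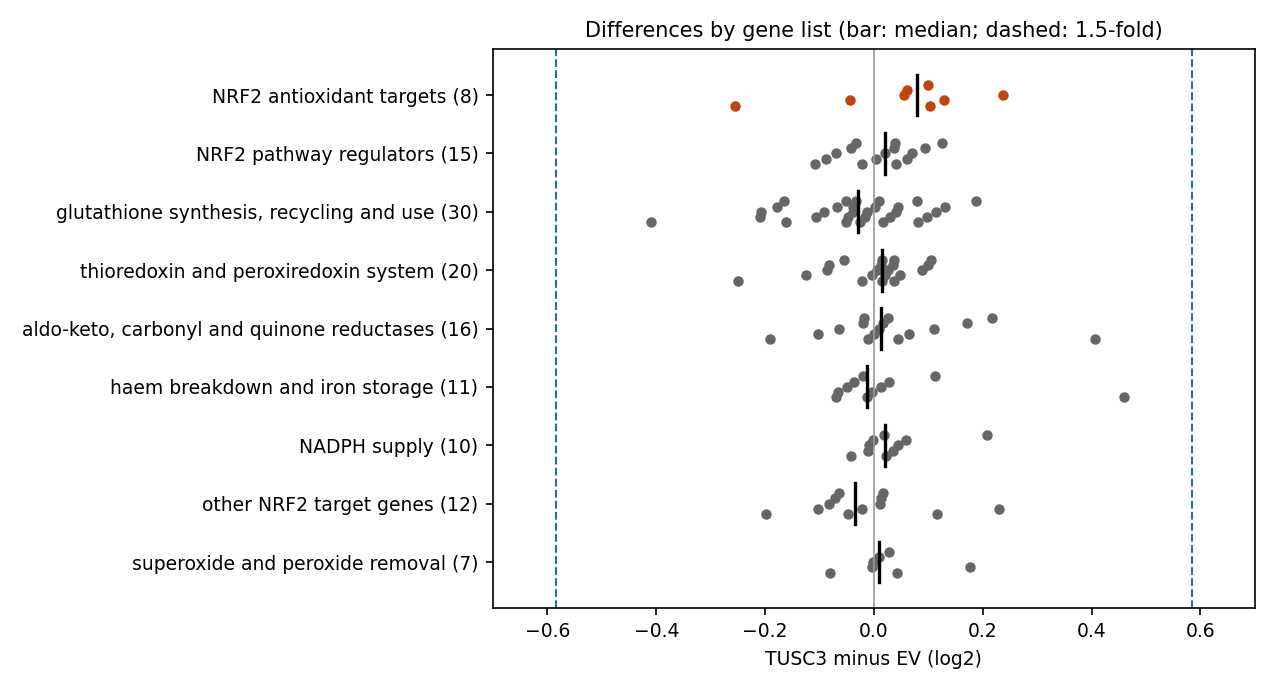
Difference of every measured gene, TUSC3 minus EV on the log2 scale (x axis), in the NRF2 targets and the 8 pathway lists, with the number measured in parentheses, the median as a bar and dashed lines at 1.5-fold. All points lie between the dashed lines, and every list median lies within 0.08 of 0.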

How the data were processed

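Total RNA was converted to biotin-labelled cRNA and hybridised to Affymetrix arrays, per the labels' protocols. The deposited values are log2 levels made with RMA, per the submitters' processing notes; the sources used here give neither its version nor its settings. Every array had a median of 5.50, so a shift of most genes in one direction would not be seen. The number of distinct values was 22765 on TUSC3 replicate 1 and 9648 on the others, and the former's sorted values differed from theirs by at most 0.00179. Of 25088 probe sets, 23752 had 1 gene symbol in the platform annotation and 1336 are unnamed here. No gene had more than 1 probe set.

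TUSC3 minus EV was fitted over the 23752 genes in R 4.3.3 with limma 3.58.1 (functions lmFit and eBayes, no further normalization or filter, two-sided, Benjamini-Hochberg adjustment over all genes, threshold 0.05). Data were simulated for this comparison, with 50 of 23752 genes changed at each of 4 fold sizes. Of these, 54% of genes changed 1.5-fold and 76% changed 2-fold were recovered, with 10 false calls. All were changed together, so the adjusted threshold was easier to pass than in the real data, where 1 gene passed. The shares therefore do not give the chance of recovering a single changed target. Same-numbered replicates did not deviate together (correlations -0.014, 0.043 and -0.011). Promoters came from RefSeq tables of GRCh38.p14. Besides the targets, a set of partner genes and, in each list, the 2 genes with the smallest p in each direction are named. The members and lists were chosen with earlier results of these data known. The number of arrays limits the precision.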

Additional observations from a re-analysis of the deposited data

How the results depend on the processing

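Alternatives were a repeated quantile normalization, a common median for the arrays, leaving out the dimmest 30%, a prior that is trended and robust, weights per array, a block for the replicate number, a fit that adds the unnamed probe sets, and leaving out single arrays. In all of these 0 targets and 0 pathway genes passed the threshold. With a minimum change of 1.5-fold 0 targets passed, which was fixed in advance because all 8 intervals lay inside 1.5-fold. The trended and robust prior gave 2 genes past the threshold in place of 1; the cause was not tested. Under the replicate block, 1 gene passed and SLC7A11 had an adjusted p of 0.779 (0.521 to 0.844 over its alternatives), and the block changed no call. The numbers do not pair the samples. The median difference of the targets was 0.0986 without the dimmest 30%, which removes AKR1B10, and 0.0557 to 0.0994 without single arrays. Without single arrays these differences changed sign, none near the threshold: HMOX1 (-0.0426 to 0.166), SOD2 (-0.0575 to 0.0567), GPX2 (-0.134 to 0.0174), GSR (-0.0243 to 0.0374), HMOX2 (-0.0421 to 0.00236), TKT (-0.0245 to 0.00575), OSGIN1 (-0.270 to 0.125), NQO2 (-0.0264 to 0.0778), AKR1C2 (-0.0581 to 0.0710), KEAP1 (-0.0269 to 0.0523), TXNIP (-0.0858 to 0.0343) and PRDX1 (-0.0444 to 0.0316). The other values of the 8 targets (102) and of 46 other named genes (571) kept their direction and their side of the threshold.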
